A study of Oryza sativa Indica Group with 17 samples.

Results

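Fast neutron and gamma ray mutants of rice with the same lesion mimic phenotype, spl1 (spotted leaf 1), were compared for how much of the genome appeared deleted and where. The 4 lines were chosen by mutagen and phenotype, with earlier results of these data known. The study had already reported overlapping deletions on chromosome 12 in all 4. They are F1856 and F2045, which the sample labels give as fast neutron lines, and G650 and G9799, given as gamma ray lines, out of 16 mutant lines and 17 arrays in the whole series. The remaining 12 lines and 1 array of wild type IR64, called the wild type check here, served as background. Genomic DNA of leaves from plants of 45 days was hybridized to the Rice GeneChip, and the labels give the 4 lines no treatment other than the mutagen. All derive from the indica variety IR64 and were advanced to the M4 or M5 generation before DNA was taken. Each line is a single mutant line with 1 array in the table used, so the n of each mutagen is 2 lines, no line has a replicate among these values, and p-values measure only the spread between these lines. The phenotype comes from the study's methods, since the labels used here give mutagens only. By complementation tests G650 and F1856 are allelic at the Spl1 locus, while F2045 and G9799 share the phenotype without that test.

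Fast neutrons and gamma rays break the DNA backbone, and misrepaired breaks can remove stretches of a chromosome that carry several neighboring genes. A plant homozygous for such a loss has no template for the probes of those genes, and their hybridization signal drops. The spl1 mutants, also known as Sekiguchi lesion, form spreading orange lesions on leaves. The gene is known as CYP71P1, a cytochrome P450 of the endoplasmic reticulum that hydroxylates tryptamine to serotonin, the last step of serotonin synthesis in rice leaves. Such collections serve both forward genetics, where overlapping deletions of allelic mutants narrow a trait to a few genes, and reverse genetics.

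The gene is on chromosome 12, and the study lists several PCR primers on it, among those for testing deletions and amplifying candidates for the gene. The first pair is shown because this gene is where the missing signal of the 4 lines coincided. Both primers are written 5′ to 3′ in lower case with no position marked:
CYP71P1 forward primer: cttgcttctctgcttagtcacaatatt
CYP71P1 reverse primer: cttccccacttaaccacggttag
They are 27 and 23 bases long. Which parts of the gene they match was not determined. The values below come from the array probes of the gene and not from these primers.

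The array carries 57194 probe sets. The value of a set is the share of its perfect match probes whose signal the authors called low relative to wild type, from 0 (no probe) to 1 (all probes). Nearly all probe sets have 11 probes, so 1 probe moves a share by 0.0909, and this sets the precision of a single value. Which log ratio counted as low is not given for this table. A set whose share reached 0.5 was called. In all, 22436 sets belong to a single known gene. They gave 17903 measured nuclear genes, each with the median share where a gene had several sets, and the same rule called genes. The genes of the ASM3414082v1 assembly of japonica rice were used for names and order only, because the files name no build.

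The arrays differed in how many probes were flagged at all, and this split each mutagen. In F1856 6.22% of the probe sets had at least 1 flagged probe, and in G650 3.68%, against 27.4% in F2045, 31.9% in G9799 and 55.5% in the wild type check. The mean share over all probe sets was 0.00684, 0.00768, 0.0353, 0.0378 and 0.0745 in the same order. Each mutagen thus had 1 line of low and 1 line of high scattered flagging. The low ones, F1856 and G650, are also the lines that the study names as hybridized repeatedly while the approach was developed. Whether the table's values draw on those repeats is not stated, and their part in the low flagging was not tested. The mean of the fast neutron lines (0.0210) and of the gamma ray lines (0.0227) differed by -0.0017, far less than the gap between lines of the same mutagen (0.0284 and 0.0301; exact permutation p = 0.667). All arrays were set against the same wild type, so values of different lines are not independent of each other.

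The number of called probe sets did not part the lines by mutagen. F1856 had 48 called probe sets, 0.0839% of all sets (0.0619 to 0.111%, the 95% exact Clopper-Pearson interval). F2045 had 110, which is 0.192% (0.158 to 0.232%). G650 had 273, which is 0.477% (0.422 to 0.537%). The highest and the next to lowest count were both gamma ray lines, as G9799 had 54, or 0.0944% (0.0709 to 0.123%). The wild type check had 11, or 0.0192% (0.0096 to 0.0344%), below all 4 lines. These intervals cover counting error only. They treat probe sets as independent, which sets of the same gene or deletion are not, so they do not serve to compare lines.

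The mean was 79 called probe sets in the fast neutron lines and 163.5 in the gamma ray lines, a difference of -84.5. The exact two-sided permutation test over the 6 splits gave p = 0.667, and 2 against 2 lines cannot reach a p below 0.333. The gap between the gamma ray lines, 219 sets, was larger than the difference between mutagens, and the gap between the fast neutron lines was 62. G650 decided the sign of the difference. Without G650 the fast neutron mean was higher by 25 sets.

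Set against all 10 lines that the labels give as gamma ray, the fast neutron lines lay within the range. Those 10 lines had between 18 and 1461 called sets with a median of 72. Of them 4 lay above both fast neutron lines, 4 below both and 2 between them. The line d1, with 371 called sets and 13 called genes, is left out because its label says DEB. In the study's methods d1 is a gamma ray line. The difference of means was -232.4 sets (exact permutation p = 0.712 over 66 splits, smallest possible 0.0152). G6989 (1461 called sets) and G282 (990) weigh most on it, and the next highest count was 273 in G650. G6989 is not among the lines in the study's tables of predicted deletions.

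**Figure D1:**
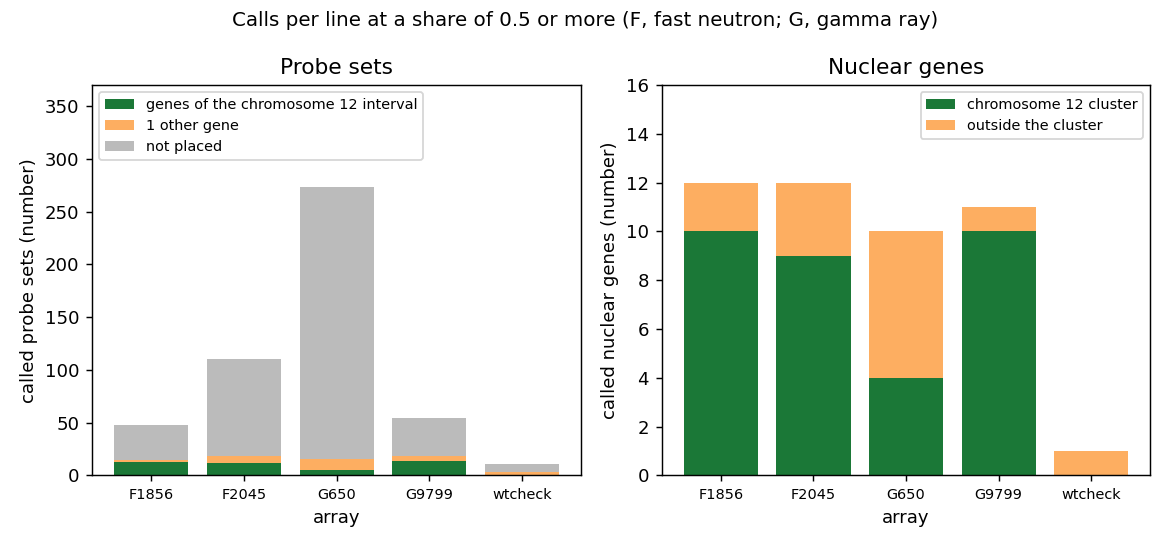
Called probe sets (left, number) and called nuclear genes (right, number) on each array, where F marks fast neutron lines, G gamma ray lines and wtcheck the wild type check. Bars are split by whether a probe set belongs to the 11 genes of the chromosome 12 interval, to 1 other gene, or is not placed on a gene, and whether a gene lies in the line's chromosome 12 cluster. Among these 4 lines G650 has the most unplaced sets, 257, while the gene counts lie between 10 and 12 in all 4 lines.

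Counted as nuclear genes, the lines were nearly alike. F1856 and F2045 each had 12 called genes, 0.067% of those measured, G9799 had 11 (0.0614%) and G650 had 10 (0.0559%). The wild type check had 1 (0.00559%). The fast neutron lines did not overlap the gamma ray lines here, with means of 12 and 10.5, a difference of 1.5 genes and the smallest p the design allows (exact permutation p = 0.333). The sign did not hold when genes took their highest probe set, which gave -0.5. Against all 10 gamma ray lines, which ranged from 0 to 555 called genes with a median of 11.5, the difference was -76.2 (exact permutation p = 0.636). G6989 (555 genes) and G282 (237) weigh most on that difference, and the next highest count was 35 in G6603.

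Most called sets were not placed on a single gene, and the gene counts do not hold them. In F1856 33 of the called sets were unplaced, in F2045 92, in G650 257 and in G9799 36. Many were not particular to their line. At least 1 of the 12 other lines also called 83.3% of those of G650 and 79.3% of those of F2045. For G9799 this was 44.4% and for F1856 18.2%. The share of all probe sets called in at least 1 of those 12 lines was not counted, so these overlaps lack their background. The most that a single one of them called was 2.55% of all sets, in G6989. The wild type shared by all arrays can add to such overlaps, and its part was not tested. Only 5.86% of the called sets of G650 were paired with 1 gene, against 16.4% in F2045, 31.2% in F1856, 33.3% in G9799 and 39.2% on the whole array. Sets whose names end in _x_at, which hold probes that can match several transcripts, made up 38.1% of the called sets of G650. They made up 10.4% in F1856, 11.8% in F2045 and 14.8% in G9799, near the 12.5% of the whole array. Sets of the OsAffx series took 41.7% of the calls in F1856 and 46.3% in G9799, near the array's 44.6%, but 73.6% in F2045 and 70.3% in G650. The share of OsAffx sets did not part the lines by mutagen. That of _x_at sets was higher in both gamma ray lines, but in G9799 it rested on 8 of 54 called sets. In F2045 such sets were 13 of 110 and in F1856 5 of 48, so only G650 lay well above the array. Of the lines not compared here, d1 had a like makeup, with 371 called sets of which 5.93% were paired with 1 gene, 80.6% were OsAffx sets and 30.2% were _x_at sets. Without _x_at and _s_at sets G650 had 138 called sets and the difference between mutagens was -27.

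The called sets of G650 were also the most completely flagged. All probes were flagged in 46 sets of G650, 11 of F1856, 8 of G9799 and 4 of F2045, and no set of the wild type check reached that level. Among called sets the median was 0.818 in G650, 0.727 in F1856 and 0.636 in both F2045 and G9799. At the threshold itself, 5 of 11 probes (0.455, not called) were flagged in 6 sets of F1856, 84 of F2045, 27 of G650 and 38 of G9799. Just inside it, 6 of 11 probes (0.545) were flagged in 4, 47, 15 and 16 sets, and in the 11 called sets of the wild type check. F2045 therefore had the most calls that rested on a single probe, and its count moved to 194 at a share of 0.4 and to 63 at 0.6.

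**Figure D2:**
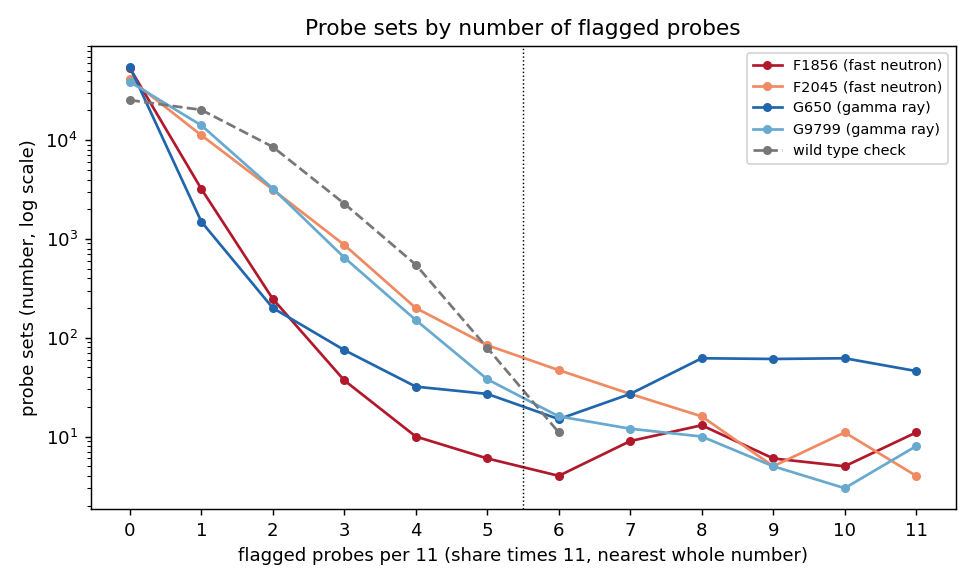
Probe sets (number, log scale) by flagged probes per 11 on each array, with the threshold of a call as a dotted line between 5 and 6. F1856 and G650 fall steeply over the low numbers and rise again above 6, to 62 sets at 8 flagged probes in G650 and 13 in F1856, while the wild type check has no set above 6.

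On chromosome 12 all 4 lines had a cluster of called genes, and it ended at the same gene, CYP71P1, in each. The clusters together covered 11 consecutive measured genes out of 908 on the chromosome. In F1856 the cluster ran from LOC4351918 to CYP71P1 with 10 called genes of 11 spanned. In F2045 it ran from LOC4351919 with 9 of 10. In G9799 it also began at LOC4351919, with 10 of 10. In G650 it began at LOC4351938 and held 4 genes, all called. One fast neutron and one gamma ray line thus began at the same gene, the other fast neutron line 1 gene earlier, and the other gamma ray line 6 genes later. The tables used give no description for most of these genes, which are given by their symbols.

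The mean length of the cluster was 9.5 called genes in the fast neutron lines and 7 in the gamma ray lines. The difference of 2.5 genes had an exact permutation p of 1, because the gamma ray lines (4 and 10) lay on both sides of F2045. The gap between the gamma ray lines was 6 genes and that between the fast neutron lines 1 gene. G650 again set the difference: without it the fast neutron mean was lower by 0.5 genes.

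**Figure D3:**
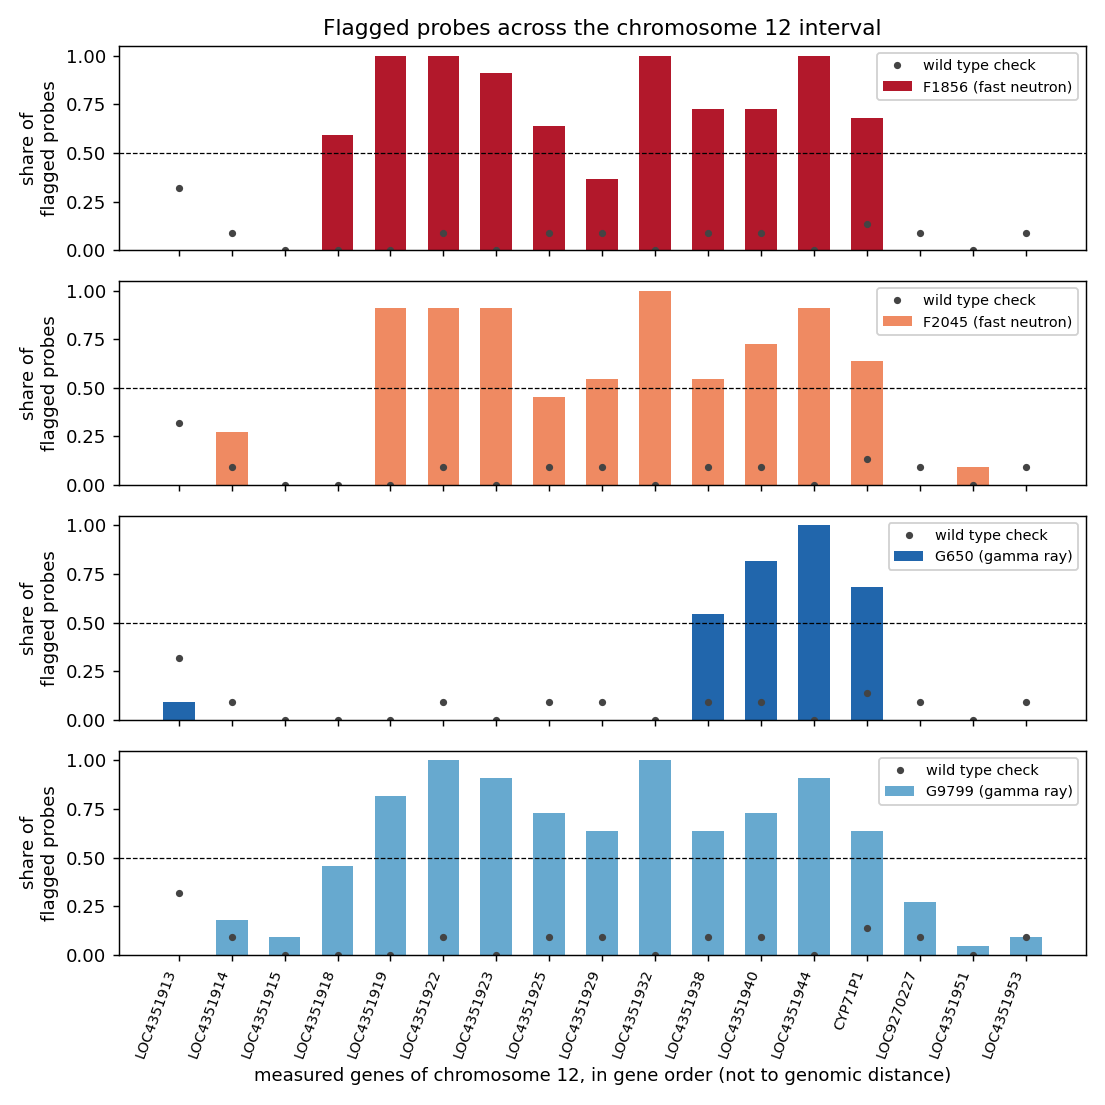
Share of flagged probes (bars, 0 to 1) of 17 measured genes of chromosome 12 in gene order, 1 panel per line, with the wild type check as dots and the call threshold of 0.5 as a dashed line. F1856 and G9799 have bars at all 11 genes of the interval, F2045 at all but the leftmost, LOC4351918, and G650 at the last 4, and every cluster stops at CYP71P1.

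The 4 genes at the right end were called in every line. CYP71P1 had a share of 0.682 in F1856, 0.636 in F2045, 0.682 in G650 and 0.636 in G9799, against 0.136 in the wild type check. Both of its probe sets were called in each line, the first at 0.727 in F1856, F2045 and G650 and 0.636 in G9799, and the other at 0.636 in F1856, G650 and G9799 and 0.545 in F2045. The levels of this gene therefore lay within 1 probe of each other across both mutagens.

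LOC4351944, its left neighbor, had 1 in F1856, 0.909 in F2045, 1 in G650 and 0.909 in G9799. LOC4351940 had 0.818 in G650 and 0.727 in each of F1856, F2045 and G9799. LOC4351938 had 0.545 in both F2045 and G650, 0.636 in G9799 and 0.727 in F1856. It was the gene nearest the threshold of these 4, and it marked the left end of the G650 cluster by 1 probe: at a share of 0.6 that cluster began at LOC4351940 with 3 genes.

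Over these 4 genes the mean share was 0.784 in F1856, 0.705 in F2045, 0.761 in G650, 0.727 in G9799 and 0.0795 in the wild type check. The mean of the fast neutron lines and that of the gamma ray lines were both 0.744. The spread of a gene over the 4 lines was 0.0455 to 0.182, that is, at most 2 probes of 11. These 4 genes were taken because all 4 lines called them, which by itself narrows the range of their shares. The lines were also chosen for the same phenotype. The likeness of these shares therefore cannot decide whether the mutagens differ in level.

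All 7 genes to the left had flagged probes in F1856 and G9799, 6 of them did in F2045, and none did in G650. LOC4351932, next to the common stretch, had all probes flagged in F1856, F2045 and G9799 and a share of 0 in G650. LOC4351922 had 1 in F1856, 0.909 in F2045 and 1 in G9799. LOC4351923 had 0.909 in these 3 lines, in both of its probe sets. LOC4351919 had 1 in F1856, 0.909 in F2045 and 0.818 in G9799. For these genes the long clusters differed by no more than 2 probes, whichever the mutagen.

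The remaining 3 genes differed more between the long clusters. LOC4351925 was called in F1856 (0.636) and G9799 (0.727) but not in F2045 (0.455), where it is the 1 uncalled gene of the cluster. LOC4351929 was called in F2045 (0.545) and G9799 (0.636) but not in F1856 (0.364). Its 3 probe sets disagreed: the set of the OsAffx series had all probes flagged in the 3 lines, the _x_at set had 0.364, 0.545 and 0.636 in F1856, F2045 and G9799, and the _s_at set had 0, 0.273 and 0.0909. The call of this gene therefore rested on which of its sets was read.

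LOC4351918, the leftmost gene, was where the 3 long clusters parted. Its share was 0.591 in F1856, 0.455 in G9799, just outside the threshold, and 0 in F2045 and G650. Of its 2 probe sets the _s_at set had 0.818 in F1856 and 0.545 in G9799, and the _x_at set had 0.364 in both lines, while neither had a flagged probe in F2045. Here the lines with flagged probes were 1 fast neutron and 1 gamma ray line, and the lines at 0 likewise. Read by its highest set, G9799 also began at this gene. At a share of 0.6 F1856 began at LOC4351919, as F2045 and G9799 did. Without _x_at and _s_at sets LOC4351918 has no set left, so no cluster could begin there.

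Averaged over the 7 left genes, G650 stood apart from F1856, F2045 and G9799. The mean share of these genes was 0.786 in F1856, 0.792 in G9799, 0.675 in F2045 and 0 in G650, with 0.039 in the wild type check. F1856 and G9799 differed by -0.0065, and F1856 and F2045, both fast neutron lines, by 0.11. The mutagen means were 0.731 and 0.396, the latter the mean of 0 in G650 and 0.792 in G9799.

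Beyond the interval the shares dropped within 1 measured gene. To the left, LOC4351915, which carries the laccase synonym LAC24, had 0 in F1856, F2045 and G650 and 0.0909 in G9799. LOC4351914, a gene for the J-domain protein ERdj7, had 0 in F1856 and G650, 0.273 in F2045 and 0.182 in G9799. LOC4351913 had 0 in F1856, F2045 and G9799 and 0.0909 in G650, below the 0.318 of the wild type check. Of the 20 measured genes on the left, none was called in any line, and 20 in F1856, 19 in G650, 13 in G9799 and 12 in F2045 were at 0.

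To the right of CYP71P1 the first measured gene, LOC9270227, had 0 in F1856, F2045 and G650 and 0.273 in G9799. Its 6 probe sets disagreed in G9799: 2 of its _x_at sets had all probes flagged there, 1 set had 0.455, and the other 3 had at most 0.0909. In F1856, F2045 and G650 none of these 6 sets was above 0.0909. Read by its highest set, the cluster of G9799 spanned 12 genes and ended at LOC9270227, the only one of the settings tried under which the right end of a line moved. LOC4351951 and LOC4351953, the next genes, had at most 0.0909 in the 4 lines. Of the 20 measured genes on the right none was called in any line.

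The wild type check had at most 0.136 in any of the 11 genes of the interval. Of the 12 other lines, 1 called one of them, G282 with 0.545 at LOC4351925, and no other share was above 0.455. The DEB lines D1137 and D2943, which have the same phenotype, had shares of 0.182 and 0 at CYP71P1 and at most 0.0909 in the other 10 genes. DEB, diepoxybutane, is a chemical mutagen known for small lesions. No line outside the 4 had a run of called genes here.

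By probe sets the picture was the same. The 11 genes have 16 paired probe sets, of which 13 were called in F1856, 12 in F2045, 14 in G9799 and 5 in G650. All probes were flagged in 5, 2, 3 and 1 of them. The share of a line's called genes that lay in its cluster was 83.3% in F1856, 75% in F2045, 90.9% in G9799 and 40% in G650. The share of its called probe sets was 27.1%, 10.9%, 24.1% and 1.83%.

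Outside the cluster F1856 had 2 called genes, F2045 had 3, G650 had 6 and G9799 had 1. The means were 2.5 in the fast neutron and 3.5 in the gamma ray lines, a difference of -1 (exact permutation p = 1), with gaps of 1 and 5 genes within the mutagens. The sign turned without G650 (1.5) and at shares of 0.4 (1) and 0.6 (0.5). Called genes were on 2 chromosomes in F1856, 3 in F2045, 6 in G650 and 1 in G9799. Called probe sets that could not be placed in the cluster, most of them with no known position, numbered 35, 98, 268 and 41, with means of 66.5 and 154.5, a difference of -88 (exact permutation p = 0.667) that was 25.5 without G650.

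F1856 had the only calls elsewhere that were neighbors of each other. LOC4328533 and LOC4328539 on chromosome 2 are consecutive measured genes, and all probes of both were flagged. Both had a share of 0 in F2045, G650 and G9799. In the wild type check they had 0.0909 and 0. The genes on either side, LOC4328532 and LOC4328540, had no flagged probe in F1856. Of the 12 other lines none called LOC4328539, where the highest share was 0.182, and 1, G6989, called LOC4328533 at 0.545.

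LOC4328532 itself was called in G650, at 0.591, where LOC4328533 and LOC4328539 had 0. It had 0 in F1856 and G9799, 0.0455 in F2045 and 0.136 in the wild type check, and was also called in d1 and G282. Adjacent genes of chromosome 2 were thus called in lines of different mutagens with no gene in common.

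The other 5 genes called in G650 lay on 5 chromosomes, each alone. LOC4328285 on chromosome 2 had 0.818 in G650, 0 in F1856 and G9799 and 0.0909 in F2045. LOC107278854 on chromosome 9 had 0.818 in G650, 0 in F1856 and 0.182 in F2045 and G9799, with 0.273 in the wild type check. These were the 2 highest shares of G650 outside chromosome 12. LOC4337198 on chromosome 4, LOC4339433 on chromosome 5 and LOC4346036 on chromosome 8 had 0.545 each in G650, just inside the threshold. LOC4339433 reached 0.455 in F2045 and LOC4337198 0.273, while LOC4346036 was at 0 in F1856, F2045 and G9799. Each of the 5 was also called in at least 1 line outside the 4: LOC4328285, LOC4337198 and LOC4339433 in both d1 and G282, LOC107278854 in d1 and LOC4346036 in D1137.

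In F2045 the called genes outside the cluster were LOC4325077 on chromosome 1 (0.636), LOC4349131 on chromosome 10 (0.545) and LOC4352029 on chromosome 12 (0.545). All had a share of 0 in F1856 and G650, the lines with little scattered flagging, and 0.364, 0.273 and 0.545 in G9799. After subtraction of the wild type check none of these 3 calls remained, while at a share of 0.4 the count was 15. LOC4352029 was the 1 gene called outside the cluster in G9799, a call that was also lost after that subtraction, and it lay 46 measured genes past CYP71P1. It was also called in G282, G6603 and G6989. LOC4325077 was called in G282, G6603, G6686 and G6728, and LOC4349131 in d1 and G282. No gene of F2045 or G9799 outside the cluster had a share above 0.636.

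**Figure D4:**
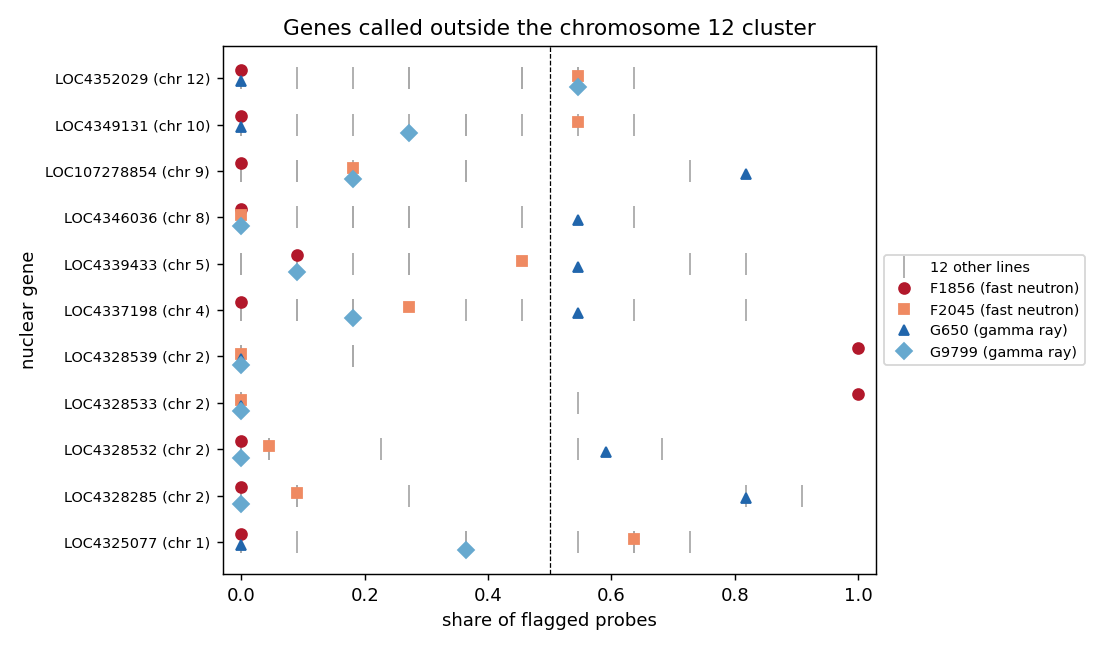
Share of flagged probes (0 to 1) of the 11 nuclear genes called outside the chromosome 12 cluster in F1856, F2045, G650 or G9799, with the 12 other lines as grey ticks and the call threshold as a dashed line. LOC4328533 and LOC4328539 are at 1 in F1856 and at 0 in F2045, G650 and G9799, and the other 9 genes each have a grey tick past the threshold.

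No probe set and no nuclear gene was called in both fast neutron lines and in neither gamma ray line (0% of the 57194 sets and 0% of the 17903 genes), nor in both gamma ray lines and neither fast neutron line (0% and 0%). In all, 385 probe sets and 22 genes were called in at least 1 of the 4 lines. Read without a threshold, both fast neutron shares were above both gamma ray shares in 103 genes (0.575%), and both gamma ray shares were the higher in 82 (0.458%). In 102 and 81 of these genes the groups were apart by no more than 1 probe. LOC4351919 was the 1 gene of the interval among them, with 1 and 0.909 against 0 and 0.818. The widest separations were 0.182, at LOC4351982 on chromosome 12 (0.182 in both fast neutron lines and 0 in both gamma ray lines) and at LOC4325848 on chromosome 1 (0.182 in both gamma ray lines and 0 in both fast neutron lines). Neither gene was called in any of the 4 lines.

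Among the unplaced sets, 9 were called in each of the 4 lines, at shares from 0.545 to 1. One of them had all probes flagged in F1856, F2045, G650 and G9799 and none in the wild type check, though another line reached 0.727. A further set had 0.909 in F1856 and G650 and 0.818 in F2045 and G9799, with 0 in the wild type check and no other line above 0.273. Where in the genome these sets lie was not determined, since no gene is paired with them. The lines differed here by at most 2 probes (0.182), in sets that were likewise taken because all 4 lines called them.

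Related genes were read from lists of named genes. Of 29 measured genes with a cytochrome P450 name, CYP71P1 was the 1 called in each of the 4 lines, and none of the other 28 was above 0.182. For serotonin and melatonin synthesis, 3 of 5 listed genes were matched. Besides CYP71P1, SNAT1, which acetylates serotonin, had 0 in F1856 and G650 and 0.0455 in F2045 and G9799, and ASMT1, which methylates N-acetylserotonin, had 0 in all 4 lines. With 0.0559 to 0.067% of all nuclear genes called in a line, no call among these other 2 genes is what the background gives.

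None of the 4 measured genes of cell death and lesion mimic phenotypes, out of 7 listed, was called in any of the 4 lines, which at that background is no result about them. SPL7, a heat stress transcription factor of the spotted leaf series, and RAR1, a partner of immune receptors, were at 0 throughout. SPL11, a ubiquitin ligase that restrains cell death, had 0.0909 in G9799 and 0 in F1856, F2045 and G650. NPR1, here LOC4327315, a regulator of salicylic acid responses, had 0.0909 in F2045 and 0 in F1856, G650 and G9799. Over all nuclear genes the median share was 0 in each of the 4 lines.

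The genes of the organelles were called once each. The mitochondrial gene cob, for cytochrome b, had 0.545 in F2045, 0.182 in G9799 and 0 in F1856 and G650. The plastid gene atpI, for a subunit of ATP synthase, had 0.818 in G650, 0.0909 in F2045 and 0 in F1856 and G9799. For neither gene did the lines part by mutagen.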

How the data were processed

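Genomic DNA was measured on 17 arrays, 1 per line. Per the labels and the study's methods, each array was scanned 2 times and the scans were averaged. The authors then scaled perfect match signals, without background correction, to those of wild type and flagged probes with a low log ratio to wild type (affy is named in the submitters' processing notes, with no version). The deposited value is a fraction, the share of a probe set's probes so flagged. The log ratio used is not given beside it, and signal over background is not known here. The labels name the wild type as the reference of every array, its own included, so the reference of the wild type check is unclear.

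Python 3.11.15, numpy 2.4.6, pandas 2.3.3, scipy 1.17.1 and matplotlib 3.10.9 were used. Sets and genes were called at a share of 0.5 or more, genes took the median of their sets, and called genes of a chromosome formed a cluster where no more than 5 uncalled ones stood between neighbors. In 57036 sets all values were multiples of 1/11 within 0.02. Lines were grouped by the mutagen in the labels, and means were compared with a two-sided exact permutation test over lines, since the study's methods state no test between lines. The labels give DEB as the mutagen of d1, so it is not among the 10 gamma ray lines. The study's methods instead give gamma rays as its mutagen, and this conflict was not resolved. Named genes were all genes called in the interval with 3 genes on each side, all genes called elsewhere, up to 4 members of each gene list, and organelle genes; LOC4351982 and LOC4325848 and the probe sets with no gene were added after their values were seen. The lines, members and lists were chosen with earlier results of these data known. SPL28, EDS1 and PAD4 and 2 listed genes of serotonin synthesis were not matched. Only the search for clusters was tested on simulated data, with planted runs of genes on chromosome 12.

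Alternatives were shares of 0.4 and 0.6, centring, subtraction of the wild type check, leaving out recurrent sets or _x_at and _s_at sets, the highest set of a gene, gaps of 2 and 10 genes, each line left out, and all gamma ray lines.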

Additional observations from a re-analysis of the deposited data

How the results depend on the processing

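With 1 array per line, no result between mutagens passed a threshold, and signs are all that could turn. Of 62 values of these comparisons under alternatives, 53 kept their sign. This count includes settings that changed nothing. The median share over all sets was 0 in each of the 4 lines, so centring could move no value. Gaps of 2 and 10 genes also left every value as it was. Leaving out each line in turn gave differences (fast neutron minus gamma ray) from -194 to 25 called probe sets, -0.5 to 5.5 genes in the cluster, -3.5 to 1.5 genes outside it and -201.5 to 25.5 sets not placed in it, with the turned sign in each case without G650. Genes outside the cluster (-1) turned to 1 at a share of 0.4, to 0.5 at 0.6 and to 1 without _x_at and _s_at sets. Called genes (1.5) turned to -0.5 with the highest set of a gene and to -76.2 against all gamma ray lines. The latter mean rests largely on G6989 (555 called genes) and G282 (237), while the median of those lines was 11.5. The causes were not tested. No paired analysis was possible because the table used holds a single array of each line and no number pairs the lines.

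Counts of single lines moved by over 1.5 times in 26 of 160 cases. Called sets of F2045 (110) were 67 after subtraction of the wild type check, and those of G9799 (54) were 95 at a share of 0.4. Called genes of F2045 (12) were 25 at 0.4 and 7 after subtraction, and those of G650 (10) were 5 at 0.6. Genes outside the cluster ranged from 0 to 15 in F2045, from 2 to 10 in G650 and from 0 to 5 in G9799. Depth limits each share to steps of 1 probe.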
